A study of Mus musculus with 6 samples.

Results

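Annexins are calcium-dependent proteins that bind negatively charged phospholipids, chiefly phosphatidylserine, on the inner face of cell membranes. Each has a conserved core that carries the calcium and membrane binding sites and a variable N-terminal tail that binds partner proteins, among them S100 proteins. The family takes part in membrane repair, vesicle traffic, the anchoring of actin to membranes, the surface activation of plasminogen and the control of inflammation. In liver, hepatocytes, biliary cells, stellate cells, endothelium and macrophages express different sets of annexins.

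Of 10 listed annexin genes, 9 had a probe set of their own among the 22180 genes measured, namely Anxa1, Anxa2, Anxa3, Anxa4, Anxa5, Anxa6, Anxa7, Anxa9 and Anxa13, with 1 probe set each. The 3 probe sets of Anxa11 are each assigned to Gm2274 and Gm2260 as well, and no value of Anxa11 is given for that reason. The genes were chosen by family name, and the family was selected on its HKO against Con differences in these same arrays, with Anxa2 among the genes that had passed the test. The differences of the annexins between the groups are therefore a description, without a test.

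RNA came from whole liver pieces of 6 male C57BL/6J mice, 1 Affymetrix whole-transcript array per mouse. The 3 HKO mice (genotype SlugHKO) came from crosses of floxed Slug mice with albumin-CreERT2 drivers; Slug, symbol Snai2, is a transcriptional repressor of the Snail family, and CreERT2 is a Cre recombinase that tamoxifen activates, made here in hepatocytes, where the albumin promoter is active. The 3 Con mice were littermates of genotype Slug f/f. The sources used here do not say if these controls had the driver, or when and with what dose Cre was activated. From the age of 8 weeks all 6 mice ate a high fat diet, in which fat supplied 60% of the calories, for 11 weeks. The deposited values are on a log2 scale made with RMA, so a difference of 1 is a doubling of the array signal. Values of separate probe sets depend on their probes and do not rank the annexins by abundance.

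The targeted gene went with the labels. Snai2 stood at 7.74, 7.69 and 7.39 on the Con arrays and at 4.62, 5.23 and 5.69 on the HKO arrays, and albumin (Alb) had a mean of 12.44 over the 6 arrays. Correlations over all genes were 0.989 to 0.992 within groups and 0.986 to 0.988 between them. In limma's test over the 22180 genes, 45 passed an adjusted p of 0.05, or 0.203%, with 20 higher and 25 lower in HKO.

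The DNA just ahead of the start sites is shown for the 3 annexins with the largest differences, since these are the genes on which the results turn. Slug binds E-boxes, and the 250 bases before each start were searched on both strands for the general E-box CANNTG, for its variant CAGGTG, which is contained in it, and for the TATA element TATAAA. The sequences are from RefSeq, build GRCm38.p6, written 5′ to 3′ on the strand of the gene. Capitals mark matches to TATAAA or CANNTG. They lie at chr9:69453433-69453682 on the plus strand for Anxa2, at chr19:20390672-20390921 on the minus strand for Anxa1 and at chr3:36475888-36476137 on the minus strand for Anxa5.
Anxa2: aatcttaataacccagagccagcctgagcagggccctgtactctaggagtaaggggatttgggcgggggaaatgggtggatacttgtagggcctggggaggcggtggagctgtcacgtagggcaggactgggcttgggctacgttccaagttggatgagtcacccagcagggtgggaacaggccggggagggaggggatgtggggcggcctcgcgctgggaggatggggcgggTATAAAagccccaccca
Anxa1: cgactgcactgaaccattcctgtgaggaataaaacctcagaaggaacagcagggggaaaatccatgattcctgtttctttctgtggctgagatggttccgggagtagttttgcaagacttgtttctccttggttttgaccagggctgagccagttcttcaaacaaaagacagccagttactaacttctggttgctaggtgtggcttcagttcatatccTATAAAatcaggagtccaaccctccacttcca
Anxa5: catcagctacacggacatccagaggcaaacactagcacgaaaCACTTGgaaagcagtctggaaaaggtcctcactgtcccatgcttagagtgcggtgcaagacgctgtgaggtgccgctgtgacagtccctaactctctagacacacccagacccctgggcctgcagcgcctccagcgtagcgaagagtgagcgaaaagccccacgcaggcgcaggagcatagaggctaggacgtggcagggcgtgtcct

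TATAAA began 17 bases before the start of Anxa2 and 32 bases before that of Anxa1. It was present in the windows of 2 of the 7 listed annexins that had an entry, against 14.3% of 27025 genes. CANNTG was absent from the windows of Anxa2 and Anxa1, and 1 match began 208 bases before the start of Anxa5. Over the annexins 5 of 7 had a CANNTG in at least 1 window, against 69.3% of genes. The variant CAGGTG was found ahead of 2 of the 7, Anxa7 (2 matches) and Anxa11 (1 match), against 19.4% of genes. A match of letters is a description of the window, and binding was not measured here.

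Anxa2 binds the S100a10 dimer on the cytoplasmic face of the membrane, and the complex also appears on the cell surface, where it assembles plasminogen with its activator. Its log2 values were 6.52, 6.65 and 6.56 in Con and 4.33, 4.58 and 4.70 in HKO. All 3 HKO arrays lay far below every Con array, with 1.82 log2 units between the lowest Con and the highest HKO value. The Con mean was 6.58 ± 0.07 and the HKO mean 4.54 ± 0.19 (SD, n = 3 each), a difference of -2.04 ± 0.12 (limma's moderated SE), or 4.11-fold lower. Leaving out any 1 array gave differences from -2.12 to -1.94. Among the 22180 genes, the difference of Anxa2 ranked 15 by size and that of Anxa1 ranked 94. In whole liver, fewer cells of a type and less RNA per cell cannot be told apart.

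Anxa1, a glucocorticoid-induced protein that limits inflammation through formyl peptide receptors, came next in size. Its values were 5.33, 6.14 and 5.74 in Con and 4.88, 4.67 and 4.60 in HKO. The Con mice were spread widely, while the HKO mice lay close together below all of them. The difference was -1.02 ± 0.20 (SE), or 2.02-fold, and ran from -1.22 to -0.82 when 1 array was left out.

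Anxa5, which covers exposed phosphatidylserine and has anticoagulant activity, showed the opposite pattern of spread. Its values were 9.59, 9.71 and 9.66 in Con and 8.43, 9.05 and 8.72 in HKO. Here the Con mice were nearly alike, with an SD of 0.06 against 0.31 in HKO, and the groups were separated by 0.55 log2 units. The difference was -0.92 ± 0.16 (SE), or 1.89-fold, and ran from -1.08 to -0.77 without 1 array.

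**Figure D1:**
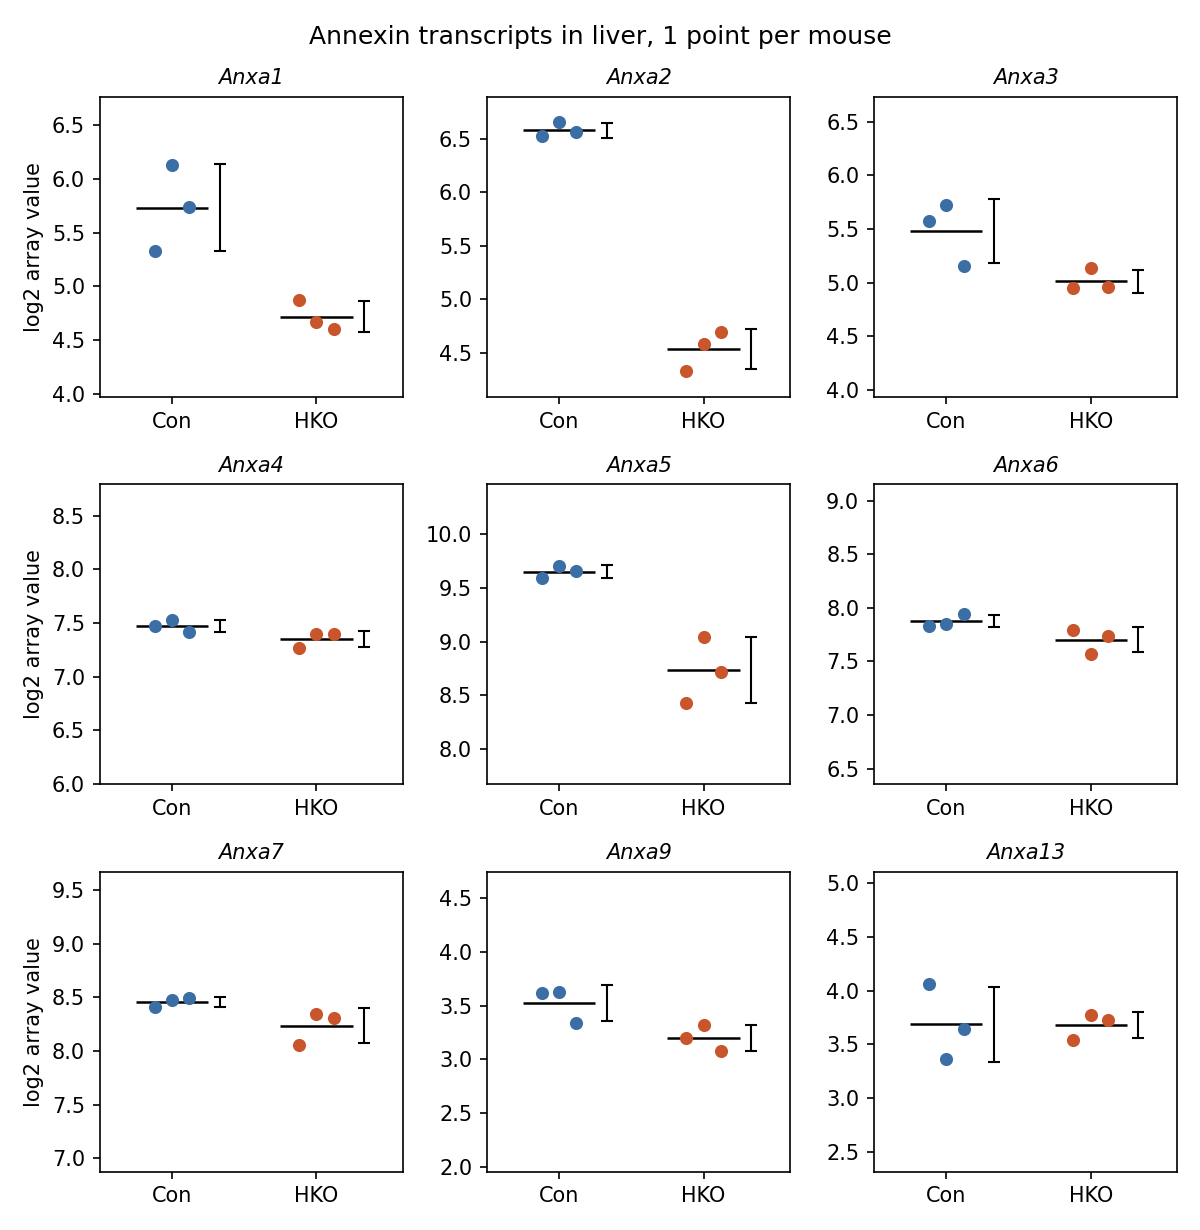
Log2 array value (vertical axis, the same span of 2.8 units in every panel) of each of the 9 measured annexins of the list in the 3 Con and 3 HKO mice. Points are mice, horizontal lines are means and error bars are SD. Anxa2, Anxa1 and Anxa5 show the widest gaps between the groups, and among these 9 the groups overlap for Anxa13 alone.

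The other annexins differed by less. Anxa3, known from neutrophils and from endothelial and biliary cells, was at 5.58, 5.72 and 5.15 in Con and at 4.95, 5.14 and 4.96 in HKO. The lowest Con and the highest HKO value were 0.01 apart, so that the groups touched, and the difference was -0.47 ± 0.16 (SE). Anxa4, an annexin of secretory epithelia such as bile ducts, was at 7.47, 7.52 and 7.42 in Con and at 7.27, 7.40 and 7.39 in HKO. That difference was -0.12 ± 0.10 (SE), about the size of its error.

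Anxa6, which has a duplicated core and acts in endosome and cholesterol traffic, was at 7.83, 7.85 and 7.94 in Con and at 7.80, 7.57 and 7.74 in HKO. Anxa7, which has a long N-terminal tail that binds the calcium sensor proteins sorcin and Pdcd6, was at 8.41, 8.48 and 8.49 in Con and at 8.06, 8.35 and 8.31 in HKO. Both sets of arrays were separated, but by only 0.03 log2 units for Anxa6 and 0.06 for Anxa7. The differences were -0.17 ± 0.10 (SE) for Anxa6 and -0.22 ± 0.11 (SE) for Anxa7.

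Anxa9, whose core lacks most of the usual calcium-binding residues, and Anxa13, an annexin of intestinal and kidney epithelium, were dim. Anxa9 was at 3.62, 3.63 and 3.33 in Con and at 3.20, 3.32 and 3.07 in HKO. Anxa13 was at 4.06, 3.36 and 3.64 in Con and at 3.54, 3.78 and 3.73 in HKO, where the groups overlapped. The differences were -0.33 ± 0.12 (SE) for Anxa9 and -0.01 ± 0.17 (SE) for Anxa13. The means of both over the 6 arrays, 3.36 and 3.68, lay below the median over genes of 3.94, so neither is shown to be above background, and the sign for Anxa13 turned to 0.18 without Con replicate 1 and to 0.06 without HKO replicate 1.

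All 9 measured annexins of the list thus had a lower mean in HKO than in Con, where 51.8% of all genes did. The HKO values lay below every Con value for 8 of the 9, where 10.1% of all genes did. Anxa8 and Anxa10, which are outside the list, were dim, with slightly higher means in HKO and overlapping groups. Of the 9, 1 annexin, Anxa2, passed the threshold in the lower direction, where 0.113% of all genes did. The median difference of the annexins was -0.33, and that of all genes -0.01. This annexin median is the value of 1 gene, the dim Anxa9. Since the family was taken up for this contrast, these counts describe it and no more. Averaged over the 9 annexins, each HKO array lay below the Con mean, by -0.67 in HKO replicate 1, -0.51 in HKO replicate 2 and -0.58 in HKO replicate 3, and the Con arrays lay between -0.06 and 0.07 of it. HKO replicate 1 was the lowest HKO array for 6 annexins, and Con replicate 2 the highest Con array for 6.

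**Figure D2:**
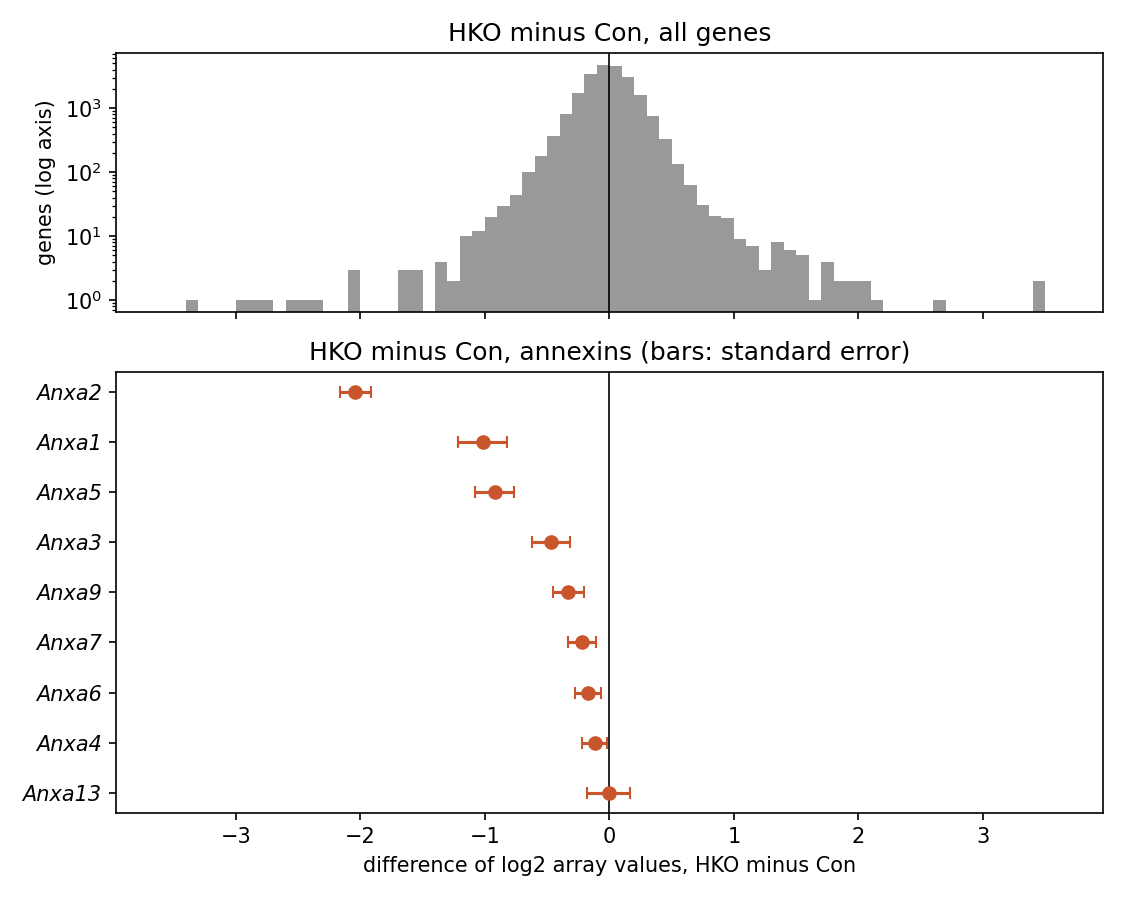
The upper panel counts genes (log axis) by their difference of log2 array values, HKO minus Con, over all 22180 genes, and the lower panel gives the same difference with its standard error for each annexin. Anxa2 at -2.04 lies in the sparse lower tail, Anxa1 and Anxa5 lie at its edge, and the other annexins lie within the bulk of genes.

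The genes whose profile over the 6 arrays was most like that of Anxa2 were found by the root mean square distance between values centred on each gene's own mean. They were Tubb2a, a beta tubulin, at a distance of 0.15 log2 units, Gprc5b, an orphan receptor, at 0.26, Mogat1, a monoacylglycerol acyltransferase, at 0.27, the targeted gene Snai2 at 0.30 and Slc22a27, a member of the organic anion transporter family, at 0.35. Tubb2a was at 8.30, 8.47 and 8.37 in Con and at 5.90, 6.04 and 6.22 in HKO, and within each group the mice stood in the same order as for Anxa2. Mogat1 shared that order, and Gprc5b, Snai2 and Slc22a27 did not. Tubb2a was picked by these same values, so the shared order is part of the selection and adds no support. Among annexins, Anxa5 and Anxa1 were nearest to Anxa2, both at 0.58, as the 34th and 36th nearest of all genes, followed by Anxa3 at 0.81. The samples fall into 2 groups, so likeness here mostly reflects a lower level in HKO of similar size.

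Proteins that work with annexins were examined next, outside the family. Of 14 listed partners and receptors 12 were measured, and 2 passed the threshold, both lower in HKO, as did 0.113% of all genes. S100a10, the partner of Anxa2, stood at 9.58, 9.47 and 9.33 in Con and at 8.47, 8.68 and 8.60 in HKO. It fell by 0.87 log2 units (SE 0.11, limma adjusted p = 0.0344), or 1.83-fold. Plat, tissue plasminogen activator, which binds the complex of Anxa2 and S100a10, stood at 4.15, 4.25 and 4.32 in Con and at 3.23, 3.27 and 3.43 in HKO. It fell with a limma adjusted p of 0.0222. The means of Plat were 4.24 in Con and 3.31 in HKO, and the HKO mean lay below the median over genes, so no fold is given.

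The HKO arrays lay below all Con arrays for both genes, as they did for 10.1% of all genes. Neither call held when any 1 of the 6 arrays was left out. The adjusted p then ran from 0.0552 to 0.164 for S100a10 and from 0.0547 to 0.143 for Plat, while the difference of S100a10 stayed between -0.94 and -0.81. Plasminogen itself (Plg), made by hepatocytes and chosen here after its values were seen, was at 11.02, 11.00 and 10.98 in Con and at 11.18, 11.12 and 11.10 in HKO, a difference of 0.13 ± 0.09 (SE, limma adjusted p = 0.635).

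Partners of Anxa1 were named after their values were seen. S100a11, which binds the tail of Anxa1, was at 7.90, 8.57 and 8.14 in Con and at 6.88, 7.46 and 6.91 in HKO. Its difference was -1.12 ± 0.21 (SE), and it did not pass (limma adjusted p = 0.112). The receptor gene Fpr2 was dim, with means of 2.46 and 2.93, and its groups overlapped. Over all 12 measured partners, 7 had lower and 5 higher means, 3 had all HKO values below every Con value (10.1% of all genes) and 1 had them all above (8.05% of all genes), and the median difference was -0.05, close to the -0.01 of all genes.

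Genes of membrane repair, in which annexins form a cap over the wound, did not pass. Of 12 listed, 11 were measured and 0 passed adjusted p 0.05 in limma, while at an unadjusted p under 0.05 4 were lower, as were 6.56% of all genes, and 0 higher, as were 5.31% of all genes. The median difference was -0.06. The lowest p-values belonged to the protease Capn2 (-0.39 ± 0.11, limma adjusted p = 0.226) and the ferlin Myof (-0.41 ± 0.13, limma adjusted p = 0.283). Of the 11, 8 had lower means in HKO, as did 51.8% of all genes. All HKO values lay below all Con values for 4 of the 11, Capn2 and Myof among them, as for 10.1% of all genes. For the other 7 the groups overlapped.

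Genes that expose or recognise phosphatidylserine, the lipid that annexins bind, had a median difference of -0.15 over 15 measured of 16 listed, of which 1 passed, lower in HKO, as did 0.113% of all genes. Gas6, a bridging ligand between phosphatidylserine and the receptors Axl and Mertk, was at 7.98, 8.10 and 7.92 in Con and at 7.21, 7.22 and 7.16 in HKO. It fell by 0.80 log2 units (SE 0.10, limma adjusted p = 0.0314), or 1.75-fold. Every HKO mouse lay below every Con mouse for Gas6, as for 4 of the 15 in all and for 10.1% of all genes. The call was lost without any 1 array (adjusted p 0.0585 to 0.157), with the difference between -0.85 and -0.75. The other 14 did not pass.

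**Figure D3:**
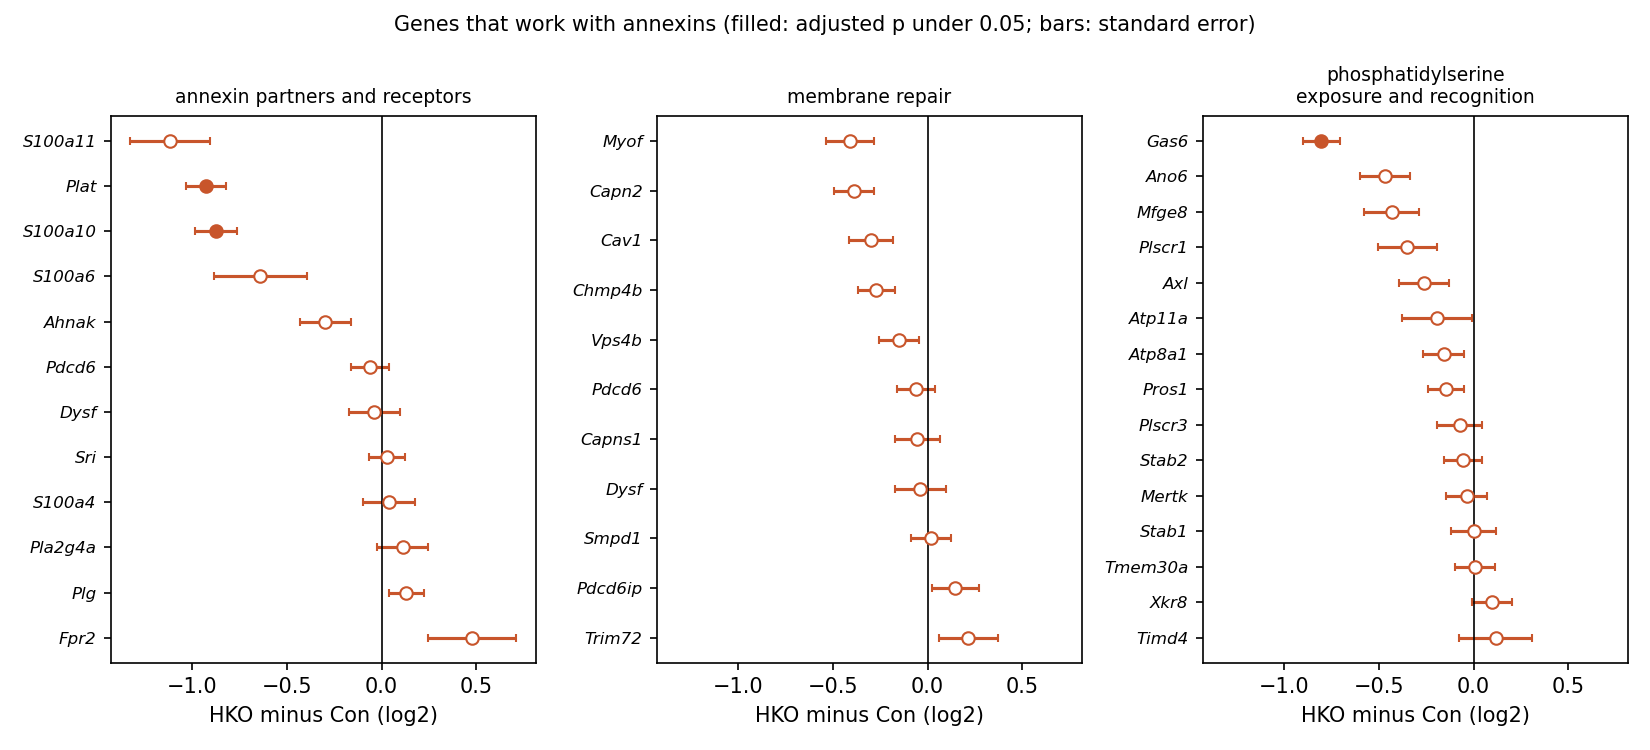
Difference of log2 array values, HKO minus Con (horizontal axis), with standard errors for measured genes of 3 lists: annexin partners and receptors, membrane repair, and phosphatidylserine exposure and recognition. Filled points passed an adjusted p of 0.05 in limma's test over all genes; these are S100a10, Plat and Gas6, all lower in HKO.

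Marker genes of the cell types in a liver piece were read beside the annexins. The mean log2 level of 10 stellate cell and fibroblast markers was 6.33 to 6.65 in Con and 5.85 to 6.06 in HKO, without overlap, and 7 of the 10 had all HKO values below all Con values, as did 10.1% of all genes. Col1a2, a type I collagen chain, passed (limma adjusted p = 0.0415) but not without any 1 array (0.0758 to 0.176); with its 2 probe sets averaged the difference was -0.58 in place of -0.98 (limma adjusted p = 0.0975). In the other 3 of the 10 the groups overlapped. These were Lrat, Reln and Des, named after their values were seen, with differences of 0.03, -0.00469 and 0.05. The mean of 8 markers of lipid-associated and monocyte-derived macrophages was 4.93 to 5.17 in Con and 4.33 to 4.70 in HKO. Of the 8, all 8 had lower means, as did 51.8% of all genes. Only 2 of the 8 had all HKO values below all Con values, as did 10.1% of all genes, and for the other 6 the groups overlapped. Itgax, an integrin of recruited macrophages, passed (limma adjusted p = 0.028) but not without any 1 array (0.0621 to 0.149), and its HKO mean of 3.42 lay below the median over genes.

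The list mean of the 10 hepatocyte markers overlapped between the groups, at 10.14 to 10.25 in Con and 10.12 to 10.44 in HKO. So did the list means of 7 measured cholangiocyte markers (3.77 to 3.86 and 3.73 to 3.81), 6 Kupffer cell markers (6.64 to 7.05 and 6.59 to 6.82), 8 neutrophil markers (3.09 to 3.35, and at most 3.12), 8 T and NK cell markers (3.297 to 3.89 and 3.44 to 3.52) and 6 mesothelial markers (3.46 to 3.69 and 3.32 to 3.66). The mean of 8 sinusoidal endothelial markers stood at 7.56 to 7.57 in Con and 7.52 to 7.55 in HKO. All HKO values lay above all Con values for 2 hepatocyte, 1 Kupffer cell and 1 sinusoidal marker, as for 8.05% of all genes. They lay below for 2 neutrophil, 1 T and NK cell and 1 sinusoidal marker, as for 10.1% of all genes. Many of these markers were dim. A mean above the median over genes was reached by 1 of the 8 neutrophil markers and 1 of the 6 mesothelial markers. It was reached by 2 of the 8 T and NK cell markers and 3 of the 7 cholangiocyte markers. The part of any cell type in the annexin values was not tested.

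**Figure D4:**
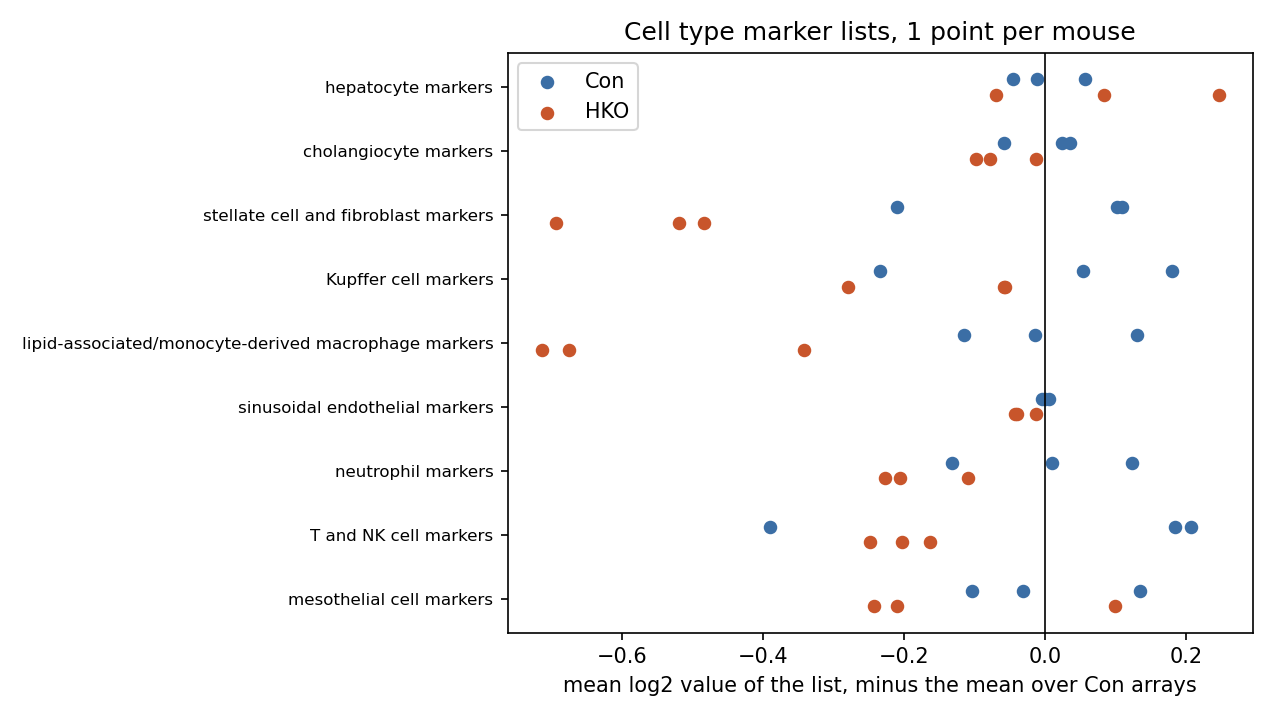
Mean log2 value of each cell type marker list in each mouse, minus the mean of that list over the 3 Con arrays (horizontal axis); points are mice. The 3 HKO mice lie below the 3 Con mice for the stellate cell and fibroblast list and for the lipid-associated and monocyte-derived macrophage list, and by a small margin for the sinusoidal list, and mix with them for the others.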

How the data were processed

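Liver RNA of 3 Con and 3 HKO mice was hybridised to Affymetrix whole-transcript arrays from 400 ng of total RNA, per the labels' protocols. Per the submitters' processing notes, which name RMA and R 3.3.0, the authors deposited log2 values that are background-corrected, brought to a common distribution and summarised per probe set, which compresses differences of dim genes. The sources used here name no further filter and no genome build. Of 41345 probe sets, 23521 had 1 gene, 1814 several and 16010 none in a platform annotation. Where a gene had several probe sets the brightest on average was used, giving 22180 genes, with no filter. HKO was compared with Con by limma 3.58.1 under R 4.3.3 (functions lmFit and eBayes, two-sided, Benjamini-Hochberg over all genes, threshold 0.05). Precision is limited by the number of arrays.

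The annexins and gene lists were chosen with earlier results of these data known. The naming rule took the annexins, Snai2, S100a10, up to 4 genes past the threshold in each list (in pathway lists with none, the 2 with the lowest p) and the 5 genes nearest to Anxa2. Alb, Plg, S100a11, Fpr2, Lrat, Reln, Des, Anxa8 and Anxa10 are named outside that rule. Promoters came from RefSeq (GRCm38.p6), with an entry for 7 of the 10 annexins. The alternatives were a second quantile normalization, array centring, a filter on low values, averaged probe sets, other variance models, array weights, a block on replicate number and leaving out each array. Scripts were tested on simulated data. Python 3.11.15 with matplotlib 3.10.9 drew the figures.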

Additional observations from a re-analysis of the deposited data

How the results depend on the processing

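Over 15 alternatives, the differences of Anxa1, Anxa2, Anxa3, Anxa4, Anxa5, Anxa6 and Anxa7 stayed negative in all 15. That of Anxa9 did so in all 14 that kept it, and that of Anxa13 was positive in 3 of 14 (5.39e-05 with array weights). Anxa2 was past the threshold in 14 of the 15 and lost it without shared variance. Anxa5 was past it in 2 of the 15 and Anxa1 in 1, so the count of 1 annexin depends on the setting. The annexin median of -0.33 became -0.47 with only genes above the median level, which drops Anxa9 and Anxa13. It ran from -0.42 to -0.27 without 1 array, and in each of those fits it was the value of the dim Anxa9. The partner median ran from -0.10 to -0.02. The count of genes called, 45, was 138 (60 higher, 78 lower) with only genes above the median level, 215 (100 higher, 115 lower) with a variance trend, 0 in limma without shared variance (2422 at an unadjusted p under 0.05) and 4 to 32 without 1 array, the lowest without Con replicate 2. In a fit with a block on replicate number it was 3, all lower. Same-numbered mice had correlations of their deviations of 0.03, 0.02 and 0.02, so the number was not taken to pair them, although each array correlated best with its own number. Under that block S100a10 had an adjusted p of 0.113, Plat 0.0675, Gas6 0.10, Col1a2 0.0789 and Itgax 0.0514, and without shared variance they had 0.221, 0.179, 0.171, 0.241 and 0.221. The targeted gene Snai2, with a limma adjusted p of 0.0145 in the main fit, had 0.054 under the block and 0.234 without shared variance. Without 1 array Snai2 passed in 3 of 6 fits (limma adjusted p 0.0179 to 0.0927). Dim values limit what can be read for Anxa9, Anxa13, Plat and Fpr2.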

Other observations

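Annexin genes outside the list were also on the array. Anxa8 had means of 2.98 in Con and 3.15 in HKO, and Anxa10 had means of 2.40 and 2.43. Both were dim, their groups overlapped, and both means were slightly higher in HKO (0.17 ± 0.17 and 0.03 ± 0.11, SE).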
